A study of Drosophila melanogaster with 12 samples.

Results

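The net change of gene expression in cut wing discs over the first 72 hours after cutting and implantation was obtained from 8 of the 12 arrays of the series, as the sum of the mean change in C0→C24 (4 arrays, 0 to 24 hours) and the mean change in C24→C72 (4 arrays, 24 to 72 hours). It covers all 12058 measured genes. The 24-hour RNA of cut discs was the common reference of both comparisons and drops out of the sum, which is called C0→C72 here, although no array set 72-hour RNA against 0-hour RNA directly. The later time is on top, so a positive log2 value is a level higher at 72 hours than at 0 hours. The files state neither direction nor log base, and both are likely rather than given, from the positive correlation of dye-swapped arrays and the directions that the study states for named genes.

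Cut discs at 0 hours were wing imaginal discs of larvae in the third instar from which a posterior sector had been removed. Cut discs at 24 and 72 hours were the same kind of fragments after culture for that time in the abdomen of recently eclosed Canton S females at 25°C. All discs came from the DrosDel isogenic line that the labels give as w118iso; 2iso; 3iso, its first part spelled w1118 in the methods of the study. Intact discs from the same line were implanted in the same way and compared at 24 and 0 hours (NC0→NC24, 4 arrays). Their values do not enter the net change and are given only beside results on cut discs. They did enter the estimate of spread behind the standard errors, p-values and calls. Each comparison held 2 biological replicates with 2 dye-swapped arrays each, and a replicate is given below as the mean of its pair. No intact disc was followed to 72 hours, so the effects of the cut, of the host and of the age of the tissue on the net change cannot be told apart.

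Wing imaginal discs are sacs of epithelium in the larva that grow by cell division and form the adult wing and part of the thorax at metamorphosis. A disc fragment placed in the abdomen of an adult female closes its wound and grows back missing parts, but does not undergo metamorphosis there. Wound closure runs through Jun N-terminal kinase (JNK) signalling at the cut edge, and the Notch, Wingless and Dpp pathways pattern the growing tissue. The hormone ecdysone, which rises in the larva before pupariation, sets off the genes of metamorphosis in discs.

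At 72 hours, 1137 of 12058 genes were higher than at 0 hours, which is 9.43% of the genes tested, and 892 were lower, which is 7.4%. These shares are the background for the counts in gene lists below. A gene was called where limma's Benjamini-Hochberg adjusted p was under 0.05 and the net change was at least 1.5-fold. For each called gene, all 4 sums of a C0→C24 replicate and a C24→C72 replicate had the sign of the net change. Of the called genes, 475 were at least 2-fold higher and 303 at least 2-fold lower, and 18 and 12 differed by at least 8-fold. The median net change of all genes was 0.02 and the median standard error 0.133, both on the log2 scale. Genes called higher had a median change of 0.62 in C0→C24 and 0.30 in C24→C72, and those called lower had medians of -0.65 and -0.24. The replicate means correlated at 0.896 across genes in C0→C24 and at 0.533 in C24→C72, so the second period was measured with less precision. The files hold ratios and no levels, so the amount of any transcript, and the presence of wing disc markers as such, could not be read from them. In whole discs, fewer cells of a type and less RNA per cell cannot be told apart.

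**Figure D1:**
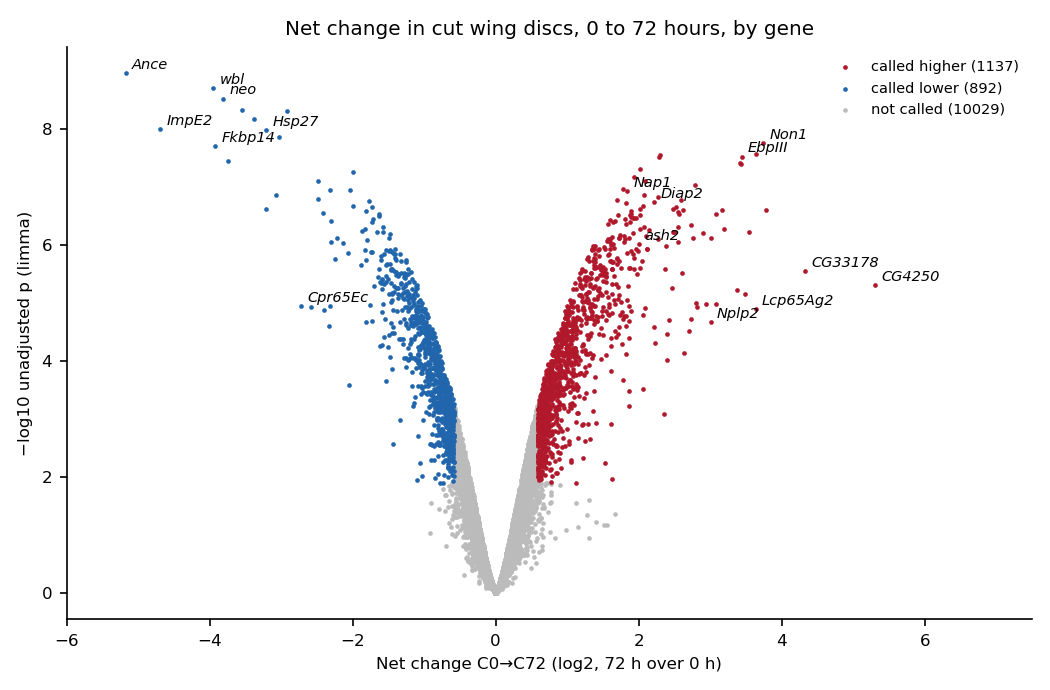
Each point is 1 of 12058 genes, with its net change C0→C72 on the x axis (log2, 72 hours over 0 hours) and the negative log10 of limma's unadjusted p on the y axis. The 1137 genes called higher (red) and the 892 called lower (blue) flank the 10029 genes not called (grey), with *CG4250* at 5.30 on the right and *Ance* at -5.17 on the left.

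The largest fall was that of *Ance*, which encodes a secreted peptidase related to angiotensin-converting enzyme. *Ance* changed by -2.31 and -1.82 in the C0→C24 replicates and by -3.31 and -2.90 in the C24→C72 replicates. Its net change was -5.17 ± 0.19 (SE, as for all net changes below), 36.0-fold lower at 72 hours (adjusted p = 1.16e-05), and both periods contributed. *Spn43Aa*, which encodes a serpin, was negative in both periods, with -2.42 and -2.14 followed by -1.41 and -1.12, for a net change of -3.55 ± 0.15 (adjusted p = 1.16e-05). *CG15282* was similar, at -2.08 and -1.74 in C0→C24 and -1.52 and -2.15 in C24→C72, with a net change of -3.74 ± 0.21 (adjusted p = 2.61e-05).

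In the falls that follow, except that of *Cpr65Ec*, the larger part came in the first period. *ImpE2*, known as an ecdysone-inducible gene of evaginating discs, changed by -4.50 and -4.43 in C0→C24 but by -0.46 and 0.02 in C24→C72, and remained 25.8-fold lower at 72 hours (net change -4.69 ± 0.22, adjusted p = 1.54e-05). *ImpE2* changed by -4.08 and -3.44 in intact discs over 24 hours. *wbl* (windbeutel), whose protein in the endoplasmic reticulum is needed for dorsoventral patterning of the embryo, changed by -3.44 and -3.16 and then by -0.48 and -0.82, with a net change of -3.95 ± 0.15 (adjusted p = 1.16e-05). *neo* (neyo), which encodes a zona pellucida domain protein of the apical extracellular matrix, changed by -3.28 and -2.83 and then by -0.82 and -0.68, with a net change of -3.81 ± 0.16 (adjusted p = 1.16e-05). *Fkbp14*, which encodes a prolyl isomerase of the endoplasmic reticulum, changed by -3.30 and -2.61 and then by -1.03 and -0.90, with a net change of -3.92 ± 0.20 (adjusted p = 2.16e-05). Among the 15 largest falls *Cpr65Ec*, a cuticle protein gene, had opposite signs in the 2 periods, with 0.86 and 0.96 in C0→C24 and -4.12 and -3.12 in C24→C72 (net change -2.72 ± 0.30, adjusted p = 0.000353).

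The largest rise was that of *CG4250*, which has no name beyond its annotation number, with 5.8 and 4.14 in C0→C24 and 0.22 and 0.45 in C24→C72. It was 39.5-fold higher at 72 hours (net change 5.30 ± 0.53, adjusted p = 0.000217), and in intact discs it changed by 4.54 and 3.18 over 24 hours. *CG33178* had the opposite timing, with 1.58 and 0.00 in C0→C24 and 3.69 and 3.38 in C24→C72, for a net change of 4.33 ± 0.40 (adjusted p = 0.000161). Most of its rise therefore came after 24 hours, and the first-period replicates disagreed. *Non1*, which encodes a nucleolar GTP-binding protein, was positive in both periods, with 2.54 and 2.07 and then 1.46 and 1.43, and stood 13.4-fold higher (net change 3.74 ± 0.19, adjusted p = 2.07e-05).

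The remaining large rises belonged to diverse genes. *heca* (headcase, listed as *hdc* in the study), known for restricting branching of the trachea and for its role in imaginal cells, changed by 2.46 and 1.66 and then by 0.85 and 0.82, with a net change of 2.90 ± 0.22, 7.44-fold (adjusted p = 8.38e-05). *Ude*, which encodes a nuclease that cuts DNA containing uracil, had 3.25 and 2.40 in C0→C24 and 0.59 and 0.84 in C24→C72 (net change 3.54 ± 0.27, adjusted p = 8.33e-05). *Tsf3*, of the transferrin family of iron-binding proteins, had 4.14 and 3.00 in the first period and -0.20 and -0.19 in the second, and stood 10.4-fold higher at 72 hours (net change 3.37 ± 0.35, adjusted p = 0.000236). *Jhbp7*, named for binding juvenile hormone, had a net change of 3.48 ± 0.36, and *EbpIII*, known from the ejaculatory bulb, 3.44 ± 0.19 (adjusted p = 0.000264 and 2.38e-05).

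**Figure D2:**
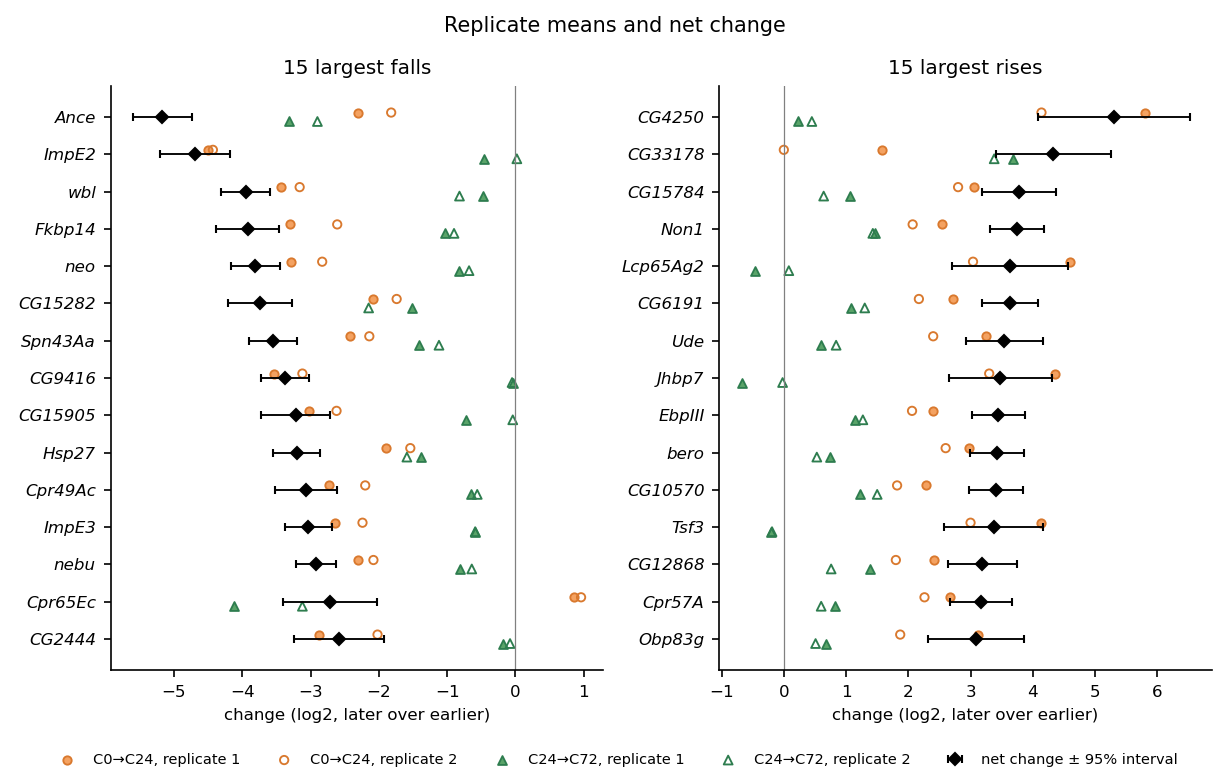
The 15 largest falls (left) and the 15 largest rises (right) are shown with both replicate means of C0→C24 (circles), both of C24→C72 (triangles) and the net change with its 95% interval (diamonds), on a log2 axis of later over earlier. *ImpE2* and *CG4250* have first-period circles far from 0 and second-period triangles near 0, whereas *Ance* lies far from 0 in both periods and *CG33178* mostly in the second.

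Genes of the ecdysone response were divided. Of 21 measured genes, 9 were lower and 4 higher at 72 hours, with a median net change of -0.36. The lower genes included the ecdysone-inducible *ImpE2*, *ImpE3* (-3.04 ± 0.15, adjusted p = 1.79e-05) and *ImpL2*, a secreted binding protein for insulin-like peptides. *ImpL2* changed by -1.74 and -1.05 in C0→C24 and by -0.60 and -1.28 in C24→C72 (net change -2.33 ± 0.29, adjusted p = 0.000553). *Blimp-1*, a transcription factor known for timing pupation, was lower by -1.60 ± 0.16 (adjusted p = 0.000209). The higher genes were both subunits of the ecdysone receptor, *EcR* at 1.03 ± 0.14 and *usp* at 0.67, and the nuclear factors *ftz-f1* and *Eip93F*, which act later in metamorphosis. *ftz-f1* changed by 1.44 and 1.27 and then by 0.38 and 0.67 (net change 1.88 ± 0.14, adjusted p = 6.78e-05), while *Eip93F* changed by 1.72 and 1.54 in C0→C24 and by -0.06 and 0.23 in C24→C72 (net change 1.71 ± 0.18, adjusted p = 0.000294). *br*, an early ecdysone gene, was at -0.39 and not called. Of 20 genes of juvenile hormone response and binding, 4 were higher and none lower (1 lower without C0→C24 replicate 1), with a median of 0.36.

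Of 86 cuticle protein genes, 16 were higher (18.6%, against 9.43% of all genes) and 7 lower (8.14%, against 7.4% of all genes), with a median of 0.10. *Cpr57A* was 9.0-fold higher (net change 3.17 ± 0.22, adjusted p = 6.32e-05), and *Cpr49Ac* was 8.40-fold lower (-3.07 ± 0.20, adjusted p = 5.51e-05). *Lcp65Ag1*, *Lcp65Ag2* and *Lcp65Ag3*, at 1.82, 3.64 and 2.36, are near-identical copies whose transcripts the probes may not separate. Of 34 genes for chitin synthesis and remodelling, 12 were higher and 2 lower (1 lower without C0→C24 replicate 1), with a median of 0.28. *mmy*, whose enzyme makes the sugar nucleotide used for chitin, changed by 2.0 and 1.46 in C0→C24 and by 0.72 and 0.88 in C24→C72 (net change 2.52 ± 0.17, adjusted p = 6.32e-05). *kkv*, the chitin synthase gene, was higher by 0.68 ± 0.14 (adjusted p = 0.0067), and *obst-B*, a chitin-binding protein gene, by 2.56 ± 0.18 (adjusted p = 6.32e-05). The chitinase-like growth factor genes differed, with *Idgf1* at 1.89, *Idgf2* at 1.92, *Idgf6* at 1.72 and *Idgf4* at -0.74. None of the 25 genes of the Tweedle family of cuticle proteins was called, and their median was 0.04, although 2 were higher without C24→C72 replicate 1.

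Genes for folding and translocation of proteins in the endoplasmic reticulum were more often lower than higher at 72 hours. Of 33 genes, 17 were lower and 3 higher (1 higher without C0→C24 replicate 1), with a median of -0.65. *Hsc70-3*, the chaperone BiP, changed by -1.72 and -1.25 in C0→C24 and by -0.88 and -0.76 in C24→C72, and was 4.93-fold lower at 72 hours (net change -2.30 ± 0.17, adjusted p = 6.78e-05). *Sec61gamma*, of the translocation channel, was lower by -1.64 ± 0.12 (adjusted p = 6.32e-05), and *Pdi*, a disulfide isomerase, by -1.18. Higher were *crc*, the Atf4 transcription factor of the stress response (1.57 ± 0.14, adjusted p = 0.000119), *Ero1L*, an oxidase of disulfide formation (0.84), and *Atf6*, a stress sensor (0.70). Of 26 heat shock and cytosolic chaperone genes, 7 were lower and 1 higher (none without C0→C24 replicate 1, 2 without C24→C72 replicate 2), with a median of -0.26. *Hsp27*, a small heat shock protein gene, changed by -1.90 and -1.54 and then by -1.38 and -1.59, and was 9.22-fold lower (net change -3.20 ± 0.15, adjusted p = 1.54e-05). *Hsc70-4*, the constitutive cytosolic chaperone, was higher by 0.74.

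Proteasome and respiratory chain genes, where called, were all lower at 72 hours. Of 40 proteasome genes, 21 were lower and none higher, with a median of -0.74. *Rpt2*, an ATPase of the regulatory particle, changed by -1.1 and -0.83 in C0→C24 and by -0.52 and -0.68 in C24→C72 (net change -1.57 ± 0.13, adjusted p = 0.000116). *Prosalpha4*, of the core particle, was lower by -1.47 ± 0.11 (adjusted p = 8.58e-05) and *Rpn12* by -1.60 ± 0.15 (adjusted p = 0.000184). Of 74 genes of the respiratory chain and ATP synthase, 31 were lower and none higher, with a median of -0.45. That median lay between -0.54 and -0.38 with a cut replicate left out. *COX6B* and *COX8*, of cytochrome oxidase, were at -1.54 and -1.5, and *ATPsynC*, of ATP synthase, at -1.46. Among 69 mitochondrial ribosomal protein genes 19 were lower and 2 higher, with a median of -0.40. Of the glycolysis genes, 14.3% were higher and 7.14% lower, against 9.43% and 7.4% of all genes. Glycolysis had 2 genes higher and 1 lower of 14, but none higher without C0→C24 replicate 1, 1 higher and none lower without C0→C24 replicate 2 or C24→C72 replicate 1, and 2 lower without C24→C72 replicate 2. Without C24→C72 replicate 1, 1 proteasome gene, 1 respiratory chain gene and 4 mitochondrial ribosomal protein genes were higher, and without C24→C72 replicate 2, 1 proteasome gene and 2 respiratory chain genes.

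**Figure D3:**
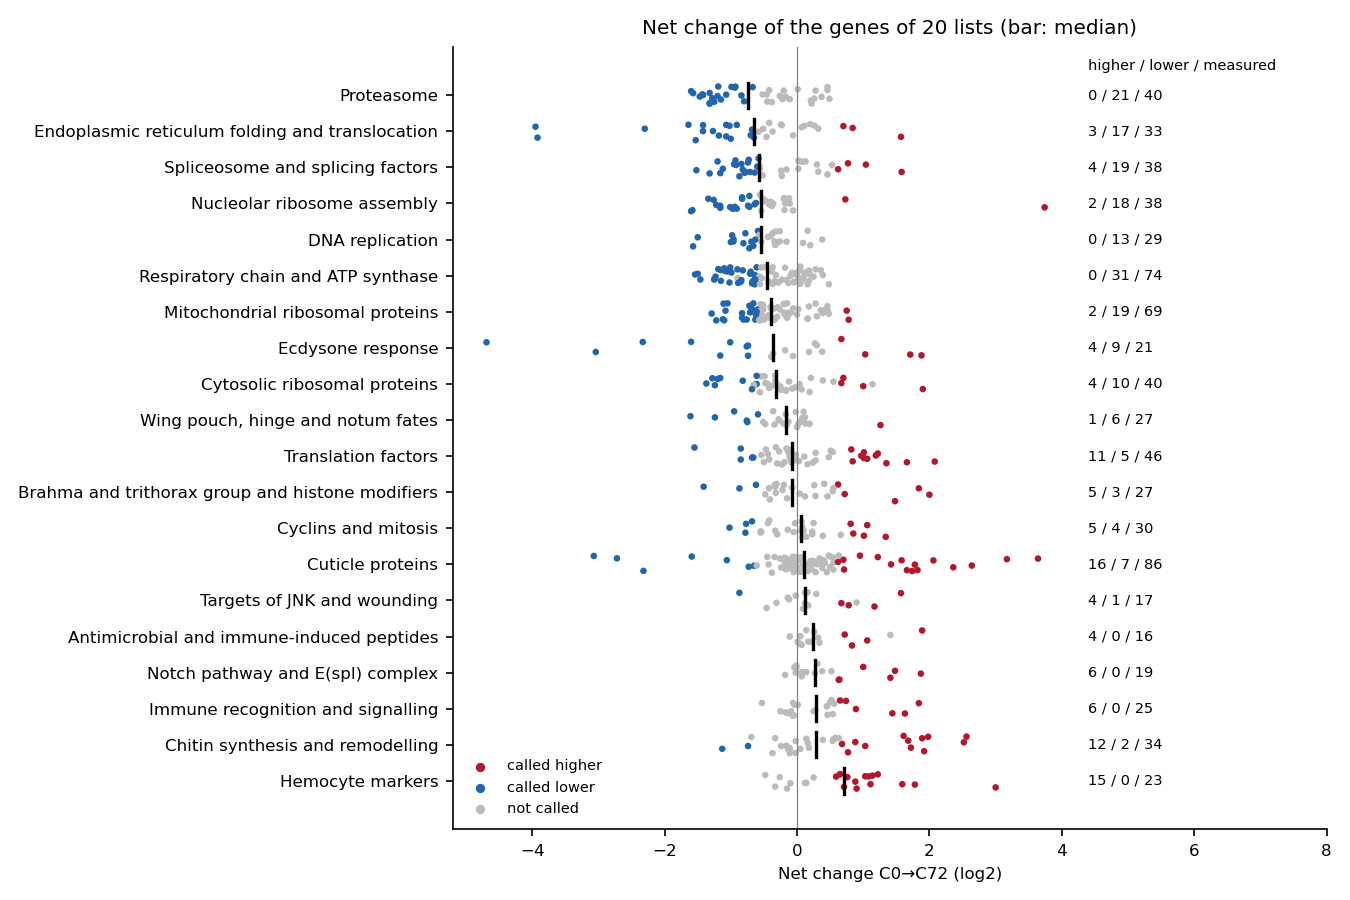
Each point is the net change C0→C72 (log2) of a gene of 1 of 20 lists, red where called higher, blue where called lower and grey where not called, and the black bar is the median of the list. The proteasome list is lowest, with a median of -0.74, and the hemocyte markers are highest, with a median of 0.71.

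Called genes of RNA processing and of the nucleolus were mostly lower. Of 38 genes for ribosome assembly in the nucleolus, 18 were lower and 2 higher (1 higher without C0→C24 replicate 2), with a median of -0.55. *Nop56*, of the box C/D particles that modify ribosomal RNA, changed by -1.30 and -1.05 and then by -0.46 and -0.38 (net change -1.60 ± 0.14, adjusted p = 0.000123). *Fib* (fibrillarin), the methyltransferase of the same particles, was lower by -1.16 ± 0.12 (adjusted p = 0.000232). The 2 higher genes were *Non1* and *Ns2*, both GTPases. Of 38 splicing genes, 19 were lower and 4 higher, with a median of -0.58. One of the lower genes, *Srp54k*, encodes a part of the signal recognition particle and not of the spliceosome. *Hel25E*, a helicase of splicing and export, was lower by -1.52 ± 0.14 (adjusted p = 0.000144). *U2af50*, which recognizes the polypyrimidine tract before the splice site, went the other way with 0.60 and 0.54 in C0→C24 and 0.92 and 1.1 in C24→C72 (net change 1.58 ± 0.17, adjusted p = 0.000282). *hfp*, a splicing regulator, was called higher at 1.04 as the mean of 3 probes that ranged between 0.04 and 2.38.

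Most of the higher translation factor genes encode subunits of initiation factor 3. Of 46 translation factor genes, 11 were higher and 5 lower (3 lower without C0→C24 replicate 1), with a median of -0.07, and 8 of the 11 encode subunits of this factor, which holds the small ribosomal subunit for the assembly of the initiation complex. *eIF3l* changed by 1.40 and 1.32 in C0→C24 and by 0.56 and 0.88 in C24→C72, and was 4.21-fold higher (net change 2.08 ± 0.16, adjusted p = 7.72e-05). *eIF3f1* changed by 0.92 and 0.56 and then by 0.86 and 1.0 (net change 1.66 ± 0.18, adjusted p = 0.000337). The subunit genes *eIF3m*, *eIF3i*, *eIF3e*, *eIF3a*, *eIF3c* and *eIF3k* lay between 1.35 and 0.82. *eIF3b* was the subunit called lower, at -0.85 ± 0.26 (adjusted p = 0.0423), and its C0→C24 replicates had opposite signs (-0.48 and 0.49). *eIF4A*, the helicase of initiation, was higher by 1.01 ± 0.12 over 17 probes that ranged between 0.88 and 1.14 (adjusted p = 0.000502), whereas *eEF1delta*, an elongation factor subunit gene, was lower by -1.55 ± 0.18 (adjusted p = 0.00047).

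Of 40 cytosolic ribosomal protein genes, 10 were lower and 4 higher, with a median of -0.32. The medians of this list were -0.04 and 0.20 in the C0→C24 replicates and -0.35 and -0.18 in the C24→C72 replicates, so the shift lay in the second period. *RpL17* changed by -0.66 and -0.44 and then by -0.96 and -0.69 (net change -1.37 ± 0.14, adjusted p = 0.000228). Without C0→C24 replicate 1, 6 genes of this list were lower, and without C0→C24 replicate 2, 2 were higher. *RpLP0-like* and *RpL24-like*, at -1.28 and 1.90, are relatives of ribosomal proteins that act in ribosome assembly. Of 28 aminoacyl-tRNA synthetase genes, 6 were lower and none higher.

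DNA replication genes, where called, were lower, while those of cell division went in both directions. Of 29 replication genes, 13 were lower and none higher, with a median of -0.54, and without C0→C24 replicate 1 the count was 7. *PCNA*, the sliding clamp of DNA polymerase, changed by -0.73 and -0.90 in C0→C24 and by -0.57 and -0.94 in C24→C72, and was 2.97-fold lower (net change -1.57 ± 0.17, adjusted p = 0.000337). *Prim1*, a primase subunit gene, was lower by -1.5 ± 0.13 (adjusted p = 0.000112), and the helicase genes *Mcm2*, *Mcm6* and *dpa* were at -0.66, -0.81 and -0.78. Of 30 genes of cyclins and mitosis, 5 were higher (16.7%) and 4 lower (13.3%), against 9.43% and 7.4% of all genes, with a median of 0.06. *feo* and *tum*, which act on the spindle midzone in cytokinesis, were at 1.34 and 1.06, and *mei-S332*, which protects centromere cohesion, was at 1.01. *fzy* (Cdc20), an activator of the anaphase-promoting complex, was lower by -1.02 ± 0.14 (adjusted p = 0.000852). Of 20 cell death genes, 4 were higher and 1 lower (2 lower without C0→C24 replicate 2, none without any other cut replicate). *Diap2*, an inhibitor of apoptosis that also acts in the Imd immune pathway, changed by 1.6 and 1.28 and then by 0.88 and 0.67, and was 4.65-fold higher (net change 2.22 ± 0.15, adjusted p = 6.00e-05). *Debcl*, a Bcl-2 family gene that promotes death, was higher by 1.59 ± 0.17 (adjusted p = 0.000336).

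Among transcriptional regulators, the trithorax group gene *ash2* and the histone chaperone gene *Nap1* had large lasting rises. *ash2*, needed for trimethylation of histone H3 at lysine 4, changed by 1.17 and 1.1 in C0→C24 and by 0.72 and 1.01 in C24→C72, and was 3.99-fold higher (net change 2.0 ± 0.16, adjusted p = 0.000101). *Nap1* changed by 0.66 and 0.62 and then by 1.18 and 1.22 (net change 1.84 ± 0.12, adjusted p = 4.94e-05), and *Bap60*, of the Brahma remodelling complex, by 0.66 and 0.55 and then by 1.04 and 0.72 (1.48 ± 0.14, adjusted p = 0.000157). Both had their larger part after 24 hours. Over the list of 27 Brahma, trithorax and histone modifier genes, 5 were higher (3 without C0→C24 replicate 1) and 3 lower, with a median of -0.07, and these genes were in part named by the study from these arrays. *HDAC1*, a histone deacetylase gene, was lower by -1.41 ± 0.12 (adjusted p = 0.000116) and *Mi-2*, of the NuRD remodelling complex, by -0.87. *mod(mdg4)*, a chromatin insulator gene, was called at 0.62 over 21 probes that ranged between -0.06 and 1.40. *Taf3*, of the TFIID complex, was higher by 1.58 ± 0.14 and *crp* (cropped), a bHLH factor gene, by 1.63 ± 0.19 (adjusted p = 0.000116 and 0.000407). Of 14 Polycomb group genes only *Pcl* was called, higher at 1.12 (7.14% of the list, against 9.43% of all genes).

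In the Notch pathway, 6 of 19 genes were higher and none lower, with a median of 0.27, and 5 of the 6 belong to the Enhancer of split complex, the direct targets of Notch. Some of these genes were picked out by the study on the same arrays. *E(spl)m5-HLH*, *E(spl)mbeta-HLH*, *E(spl)m2-BFM*, *E(spl)m6-BFM* and *Kaz-m1* of the complex were measured but not called. *N*, *Dl*, *Ser*, *Su(H)* and *E(spl)m8-HLH* were not among the 19 measured genes. *E(spl)m3-HLH* changed by 1.74 and 0.44 in C0→C24 and by 1.04 and 0.52 in C24→C72, positive throughout but uneven between replicates, and was 3.66-fold higher (net change 1.87 ± 0.36, adjusted p = 0.00506). *E(spl)m7-HLH* changed by 1.08 and 0.34 and then by 0.88 and 0.64 (net change 1.48 ± 0.22, adjusted p = 0.00128). *E(spl)malpha-BFM*, *E(spl)mdelta-HLH* and *E(spl)m4-BFM* were at 1.41, 1.0 and 0.63, the last of them not called without C0→C24 replicate 1. *Psn* (presenilin), of the protease that releases the active part of Notch, was at 0.64, with -0.07 and 0.22 in C0→C24 and 0.55 and 0.60 in C24→C72.

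In Dpp and activin signalling, 3 of 25 genes were higher and 3 lower, 12% each, against 9.43% and 7.4% of all genes. The median net change was 0.14, and between 0.06 and 0.12 with a cut replicate left out. *tok* and *tld*, which encode proteases that release BMP ligands from their antagonist, were lower, *tok* with -1.42 and -1.26 and then -0.74 and -1.0 (net change -2.21 ± 0.18, adjusted p = 8.91e-05) and *tld* with -0.86 and -0.78 and then -0.84 and -0.78 (-1.63 ± 0.12, adjusted p = 6.51e-05). The inhibitory Smad gene *Dad*, itself a Dpp target, and the Smad genes *Med* and *Smox* were higher, at 1.06, 0.83 and 0.98. *bi* (optomotor-blind), another Dpp target, was lower at -0.70. The ligand gene *dpp* was at 0.83 ± 0.47 and not called. Of 14 genes of compartments and Hedgehog signalling, only *Su(fu)* was called, lower at -0.68 (7.14% of the list, against 7.4% of all genes). The posterior genes *en* and *hh* were at 0.26 and 0.13. Of 27 genes of wing pouch, hinge and notum fates, 6 were lower (22.2%) and 1 higher (3.7%). The lower genes were *drm* (-1.61), *dve* (-1.24) and *nub* (-0.95), the last 2 expressed in the pouch, and *pnr* (-0.76), *eyg* (-0.75) and *tup* (-0.59), which are known from the notum. The higher gene was *Sox15*, known as a repressor of *wg* in the hinge, which changed by 0.82 and 0.25 and then by 0.91 and 0.54 (net change 1.26 ± 0.20, adjusted p = 0.00187).

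In growth signalling, *bigmax*, the partner of the sugar-sensing factor Mondo, was higher by 1.56 ± 0.13 (adjusted p = 9.42e-05), and *gig* (Tsc2), which restrains TOR kinase, by 1.21 ± 0.11 (adjusted p = 0.000155). They were 2 of 5 higher genes in a list of 17 for insulin and TOR signalling, in which *ImpL2* was the single lower gene (2 lower without C24→C72 replicate 1). *yki*, the transcriptional effector of the Hippo pathway, was higher by 0.88 ± 0.12 (adjusted p = 0.00114), *chinmo*, a target of JAK/STAT signalling, by 1.27 ± 0.18 (adjusted p = 0.00113), and *sty* (sprouty), a feedback inhibitor of EGFR signalling, by 1.23 ± 0.14 (adjusted p = 0.00042). In their lists, 2 of 12 Hippo genes (16.7%, median -0.03) and 1 of 8 JAK/STAT genes (12.5%, median 0.23) were higher and none lower. The shares over all genes were 9.43% higher and 7.4% lower. Of 13 EGFR and Ras genes, 3 were higher (23.1%) and 1 lower (7.69%), *S* at -0.83 (median 0.2). *Ilp8*, the relaxin-like signal of damaged discs, was at -0.14 ± 0.16 and not called.

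Of 17 targets of JNK and wounding, 4 were higher (2 without C0→C24 replicate 1) and 1 lower (2 without C0→C24 replicate 2) at 72 hours, with a median net change of 0.12, beside medians of 0.54 and 0.57 in the C0→C24 replicates. In intact discs over 24 hours, the medians of this list were 0.42 and 0.28. The genes called higher at 72 hours were *crc*, *Col4a1*, *mys* and *Gadd45*. *crc* changed by 1.03 and 0.71 in C0→C24 and by 0.74 and 0.66 in C24→C72, so that its net change of 1.57 was larger than its first-period change. *mys*, which encodes an integrin beta chain, changed by 0.97 and 0.58 and then by -0.10 and -0.12 (net change 0.67 ± 0.14, adjusted p = 0.00918) and was not called without C0→C24 replicate 1. *Col4a1*, a collagen IV gene, was at 1.17 ± 0.21. Other targets had a net change near 0. *ple*, the tyrosine hydroxylase gene induced at wounds, changed by 1.44 and 1.42 in C0→C24 and by -0.57 and -1.98 in C24→C72, with a net change of 0.16 ± 0.36. *Ets21C*, a transcription factor gene, changed by 0.84 and 0.92 and then by -0.36 and -1.21, with a net change of 0.09 ± 0.25, and *puc*, the JNK phosphatase and feedback inhibitor, by 0.54 and -0.06 and then by -0.02 and -0.22 (0.12 ± 0.20). Between these and the called genes, *cbt*, a JNK-dependent transcription factor gene, had 1.58 and 1.20 and then -1.01 and 0.04, which left 0.90 ± 0.29 and an adjusted p of 0.0522. None of these 4 genes was called, although *ple* was at 0.86 and called without C24→C72 replicate 2. *Gadd45*, a stress gene that the study counts among JNK targets, was called at 0.78 ± 0.25 (adjusted p = 0.0478), but it was not called with any single cut replicate left out. *Pvr*, a receptor tyrosine kinase gene, was lower by -0.87. In intact discs over 24 hours, *cbt* changed by 1.39 and 1.29, *ple* by 1.06 and 0.76 and *Gadd45* by 1.52 and 0.65. Intact values were 0.63 and 0.28 for *Ets21C* and 0.16 and 0.45 for *puc*. In the JNK cascade list, 6.25% were called higher, against 9.43% of all genes, and none lower. Of 16 genes of the JNK cascade itself, only *Shark* was called, at 1.21, while 2 were higher without C24→C72 replicate 1 and 1 lower without C0→C24 replicate 2.

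Antimicrobial peptide genes had positive values in the first period and mostly negative ones in the second. Of 16 immune-induced peptide genes, 4 were higher and none lower (2 higher without C0→C24 replicate 1 and 1 without C24→C72 replicate 1), with a median net change of 0.24, beside medians of 0.94 and 1.12 in the C0→C24 replicates and -0.36 and -0.63 in the C24→C72 replicates. In intact discs over 24 hours, the medians of this list were 0.71 and 0.64. *Drs* (Drosomycin) changed by 5.87 and 3.88 and then by -2.78 and -4.16, and its net change of 1.41 ± 0.65 had an adjusted p of 0.157. Its intact values were 6.0 and 4.87. *AttB*, an attacin, changed by 1.70 and 1.46 and then by -1.32 and -1.42 (net change 0.22 ± 0.18, adjusted p = 0.431). *BomT2*, a bomanin, stayed 3.70-fold higher, with 2.20 and 2.17 and then -0.10 and -0.50 (net change 1.89 ± 0.16, adjusted p = 0.00011). *BomS2*, *Mtk* (Metchnikowin) and *BomS4* were called at 1.06, 0.83 and 0.72, and none of the 3 was called without C0→C24 replicate 1. Of 25 genes of immune recognition and signalling, 6 were higher and none lower (1 lower without C24→C72 replicate 1), among them *PGRP-LF*, an inhibitor of the Imd pathway, at 1.84 ± 0.16 and *Rel*, its NF-kappaB factor, at 1.63 ± 0.16 (adjusted p = 0.000115 and 0.00021). In the same discs 15 of 23 hemocyte markers and 4 of 13 larval fat body markers were higher, and the part of these cells in the immune values was not tested.

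Of 23 markers of hemocytes, the blood cells of the fly, 15 were higher and none lower (1 lower without C0→C24 replicate 2), with a median net change of 0.71. The medians of the list were 0.48 and 0.41 in the C0→C24 replicates and 0.09 and 0.14 in the C24→C72 replicates, and 0.19 and 0.06 in intact discs over 24 hours. Net changes were above 0 for 18 of the 23 markers and below 0 for 5. *Hml* (Hemolectin), the clotting protein gene, changed by 1.58 and 1.30 and then by 0.06 and 0.26, and was 3.02-fold higher (net change 1.59 ± 0.14, adjusted p = 0.000132). The phagocytic receptor gene *eater* changed by 1.50 and 1.36 and then by -0.41 and -0.18 (net change 1.14 ± 0.13, adjusted p = 0.00045), beside 0.22 and 0.06 in intact discs. Intact values over 24 hours were 0.57 and 0.70 for *Hml*, 1.07 and 1.15 for *crq* and 0.32 and 0.34 for *NimC1*. *NimC1* and *crq*, which encode further phagocytic receptors, were at 1.11 and 1.22, *srp*, the GATA factor of blood cells, at 0.88, and the prophenoloxidase genes *PPO1* and *PPO2* at 0.76 and 1.03. *Nplp2* had the highest value of the list, 3.00 ± 0.36, with 4.54 and 3.54 and then -0.86 and -1.22 (adjusted p = 0.000495). Of the basement membrane genes, which hemocytes and fat body also express, 3 of 13 were higher. *Col4a1* changed by 2.26 and 1.58 and then by -0.64 and -0.86 (net change 1.17 ± 0.21, adjusted p = 0.00378), and *SPARC* by 1.98 and 1.62 and then by -0.10 and 0.24 (1.88 ± 0.17, adjusted p = 0.000155). The part of hemocytes in these values was not tested.

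Among markers of other tissues near an implant, the larval fat body list had 4 of 13 genes higher, none lower (1 without C0→C24 replicate 2) and a median of 0.04. In this list, 7 net changes were above 0 and 6 below 0. The higher genes included *Npc2b* at 2.46 ± 0.25, *fat-spondin* at 1.67 ± 0.12 and *Apoltp* at 0.76 ± 0.12 (adjusted p = 0.000228, 6.78e-05 and 0.00164). *apolpp*, the apolipophorin gene, was at 1.16 ± 0.27 (adjusted p = 0.0132) and was not called without C0→C24 replicate 1. *Lsp2*, a larval storage protein gene, changed by 1.90 and 2.03 and then by -2.42 and -1.98 (net change -0.23 ± 0.52). Of 14 genes of yolk, ovary and oviduct of the female host, 1 was higher (4 without C24→C72 replicate 2) and 1 lower (none without C0→C24 replicate 1), with a median of 0.06. The share of this list was 7.14% in each direction, against 9.43% higher and 7.4% lower over all genes. The yolk protein genes *Yp1*, *Yp2* and *Yp3* were not called. Their values in the C24→C72 replicates were 2.1 and 0.16 for *Yp1*, 0.88 and 0.22 for *Yp2* and 3.3 and 0.42 for *Yp3*, higher in replicate 1 each time. Their net changes were 1.31 ± 0.48, 0.62 ± 0.22 and 1.67 ± 0.71. The part of host tissue in the values of that replicate was not tested, and without it 1156 genes were higher and 947 lower over all genes. None of 31 gut digestive enzyme genes was called (1 higher without C0→C24 replicate 2, 2 without either C24→C72 replicate), and of 20 muscle structure genes 3 were higher and 1 lower. The muscle shares were 15% higher and 5% lower, against 9.43% and 7.4% of all genes. The lower muscle gene was *Act79B*, an adult muscle actin gene, at -2.0 ± 0.14 (adjusted p = 6.32e-05).

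**Figure D4:**
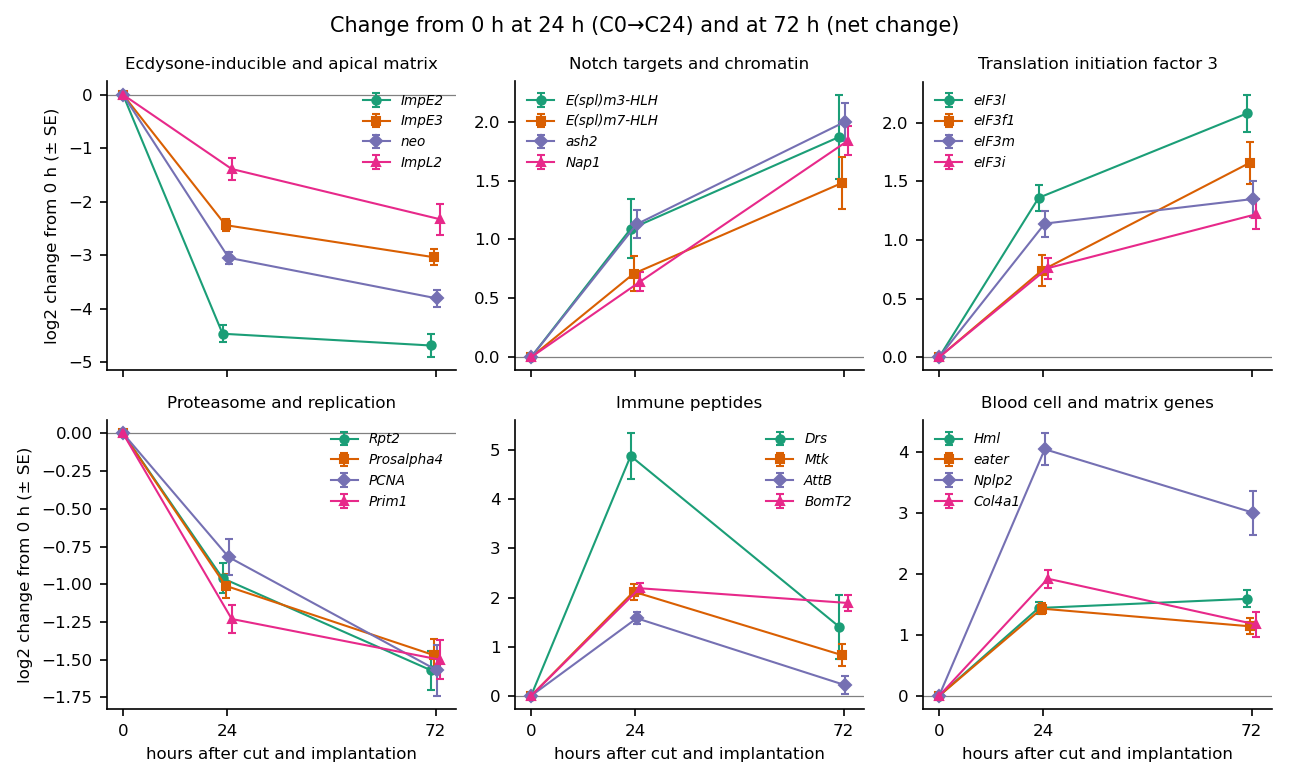
Change from 0 hours (log2, y axis) at 24 hours (C0→C24) and at 72 hours (net change) against hours after cut and implantation (x axis) for 24 genes in 6 groups, with bars of 1 SE from limma. *Drs* stands at 4.88 at 24 hours and 1.41 at 72 hours, whereas *ash2*, *Nap1* and *eIF3l* are higher at 72 than at 24 hours and *PCNA* and *Rpt2* are lower at 72 than at 24 hours.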

How the data were processed

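The deposited values were log2 ratios of 12 two-channel arrays, per the labels and the methods normalized by the authors within each set of 4 arrays with the mad method of OLIN and analysed with limma. They give no intensities or depth, so the number of arrays limits the precision. The direction (later over earlier) and base were inferred: dye-swapped arrays correlated positively (0.2 to 0.844), and the signs fitted directions stated by the study, so both are likely and not stated. Of 16416 features, 13164 carried 1 symbol, 101 several and 3151 none. Symbols were updated by gene identifier (12533) or accession (120) or kept (511), and probes were averaged to 12058 genes, 757 of them with several probes. Dye-swap pairs were averaged, and 6 replicate means in 3 groups were fitted in limma 3.58.1 under R 4.3.3 (3 residual degrees of freedom). The net change was the contrast C0→C24 plus C24→C72, with Benjamini-Hochberg adjustment over all genes, and a called gene had an adjusted p under 0.05 and at least 1.5-fold change. Any difference between the 24-hour extracts of the 2 periods stays in the sum. The scripts were tested on simulated data. Genes open to naming were the 15 largest called rises and falls with 4 sums of one sign, up to 4 genes of each of 56 lists by adjusted p, and 27 measured of 32 genes the study names, and the text gives part of them. Other list members named were chosen after their values were seen. The members and lists were chosen with earlier results of these data known. The replicates are biological per the labels, with independent RNA extractions, and p-values measure the spread between these samples.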

Additional observations from a re-analysis of the deposited data

How the results depend on the processing

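The main counts were 1137 genes higher and 892 lower. A 2-fold threshold gave 475 and 303, limma's treat against 1.5-fold gave 337 and 223, and no fold threshold gave 1683 and 1367. Leaving out 1 replicate at a time gave between 869 and 1283 genes higher and between 672 and 967 lower, and 1317 genes kept their call and sign with each cut replicate left out in turn. Whether replicate numbers pair samples between the periods is not stated. Same-numbered deviations correlated at -0.081 between the periods in cut discs, which cannot decide it, as each period gave a single difference between replicates. A replicate block gave 1131 higher and 893 lower, or 1150 and 892 with its sign turned in the second period. All other settings (cut discs only, single arrays, a dye term, array weights, robust moderation, centring, scaling, single probes) stayed within 1.5 times the main counts. Centring each array on its median gave 1076 higher and 947 lower. With a replicate left out, signs turned for *puc* (between -0.18 and 0.42), *bin* (-0.37 and 0.02), *Ets21C* (-0.33 and 0.52) and *ple* (-0.55 and 0.86), and at the probe nearest to 0 for *Ptp61F* (-0.05), *regucalcin* (-0.37), *mod(mdg4)* (-0.06), *Tsf1* (-0.10) and *bin* (0.16). Of these, *mod(mdg4)* alone was called. The cause was not tested.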

Other observations

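Of 35 glutathione transferase genes, 4 were higher (11.4%, against 9.43% of all genes) and 6 lower (17.1%, against 7.4%) at 72 hours, with a median net change of -0.06. Without C0→C24 replicate 2, 2 of them were higher. *GstT4* changed by 1.66 and 1.23 in C0→C24 and by 0.69 and 0.52 in C24→C72 (net change 2.04 ± 0.18, adjusted p = 0.000132). *GstZ1*, whose enzyme acts in tyrosine breakdown, changed by -0.90 and -0.74 and then by -0.79 and -0.45, for a net change of -1.44. *GstE14*, an enzyme of ecdysone synthesis, was lower at -1.35. Of 83 genes in the cytochrome P450 list, 7 were higher (8.43%) and 2 lower (2.41%), both shares below those of all genes, with 4 higher without C0→C24 replicate 2. The lower *Cyp1* (-1.39) encodes a cyclophilin and not a P450. Of 13 genes of iron storage and transport, 3 were higher (23.1%, against 9.43% of all genes) and 1 lower (7.69%, against 7.4%). *Tsf3*, *Zip99C* and *Fer2LCH* were higher, at 3.37, 1.72 and 0.80, and *Irp-1B* was lower, at -0.77. *Tsf1* was at 0.50 and not called. Of 16 oxidative stress genes, 4 were higher (25%, against 9.43% of all genes) and 2 lower (12.5%, against 7.4%). Among the higher was *Irc*, an immune-regulated catalase gene, at 1.88 ± 0.13 (adjusted p = 6.32e-05). The lower genes were *Sod2* at -0.93 and *Trxr1* at -0.64.

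Some families of secreted proteins had single members far from the rest. Of 48 odorant binding protein genes, 5 were higher and 2 lower (1 without C0→C24 replicate 1) with a median of 0.12, and *Obp83g* was at 3.08 ± 0.34 (adjusted p = 0.000339), with 3.12 and 1.87 and then 0.68 and 0.51. The shares of this list were 10.4% higher and 4.17% lower, against 9.43% and 7.4% of all genes. *Obp99c* was at 1.55 and *Obp99a* at -1.45. Of 24 Osiris genes, *Osi3* and *Osi2* were higher, at 2.06 ± 0.24 and 1.79 ± 0.21 (adjusted p = 0.000428 and 0.000435), and the median was 0.00. Of 6 genes of the angiotensin-converting enzyme family, *Ance* was lower and *Ance-5* higher, at 1.40. Actin regulators were lower where called, 6 of 21 (with 1 higher without C24→C72 replicate 2), among them *cpb* (capping protein) at -1.31, *sn* (fascin) at -1.27 and *tsr* (cofilin) at -1.22.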
